A study of Mus musculus with 8 samples.

Results

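DNA replication and S phase genes are described here as a set of 32 genes chosen by symbol: the 6 subunits of the MCM helicase, 6 licensing and origin-firing factors, 8 genes of DNA synthesis at the fork, 4 of nucleotide supply, 4 of chromatin and uracil repair, and 4 regulators of the passage from G1 to S. All 32 were among the 24421 gene symbols of the count files, and all 32 were among the 12623 genes that passed the filter on low counts. RNA-seq libraries came from mouse bone marrow leukemia cells (strain C57BL/6) transformed by MLL-AF9, a fusion oncogene of acute leukemia, and sorted for high c-KIT, the stem cell factor receptor. The WT group (2 libraries) came from Ikzf2f/f mice and the KO group (2 libraries) from Ikzf2Δ/Δ mice, which lack Ikzf2, the gene of the Ikaros-family transcription factor Helios. All 4 libraries thus share the MLL-AF9 transformation, the sort and a freeze and thaw before it. The sources used here do not give what deleted the gene, the age of the mice, or whether replicates came from separate animals. The p-values therefore reflect only the spread among 4 libraries, and within WT that spread may be technical. The KO libraries differed from each other in the sex-linked genes Xist and Ddx3y, as given below, and so came from donors of different sex. The 4 chromatin accessibility samples of the series were not analysed here.

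A cell that is to divide first loads MCM helicases onto its replication origins in G1, with the help of CDC6 and CDT1. On entry into S phase, CDC45 and the GINS complex join the helicase, polymerase alpha and its primase start each new strand, and the sliding clamp PCNA holds the polymerases and the enzymes that mature the fragments. Transcription of most of these genes is driven by E2F factors once cyclin-dependent kinases, among them the partner of cyclin E, have inactivated the RB proteins, so their mRNA levels are a common readout of how many cells of a population are cycling. In bulk libraries, fewer cells in S phase and less mRNA per cell cannot be told apart.

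The libraries held 16006081 to 19286090 counts in genes. In CPM, counts scaled to a common library size with TMM factors, Ikzf2 stood at 283 and 271 in WT replicates 1 and 2 and at 10.9 and 26.5 in KO replicates 1 and 2. KO replicate 1 stood apart in sex-linked genes, with Xist at 833 CPM against at most 0.6 CPM in the other 3 libraries. The Y-linked Ddx3y had 110 and 102 CPM in WT replicates 1 and 2, and 0.0619 and 70.1 CPM in KO replicates 1 and 2. By these genes KO replicate 1 came from female cells and the other 3 libraries from male cells. The part of sex in KO against WT was not tested. The progenitor markers Kit, Hoxa9, Hoxa10, Meis1 and Myb were detected in all libraries and summed to 2120 and 2390 CPM (WT) and 2150 and 2310 CPM (KO), again in the order of the replicate numbers, as below. Of 10 granulocyte markers all 10 were detected, and their sums were 1100 and 4310 CPM for the WT libraries, 13300 and 19600 CPM for the KO libraries. Mmp8, Mmp9 and Retnlg overlapped between the groups, and the other 7 were higher in both KO libraries. Antigen-presenting cell markers (6 of 6 detected) gave 39.6 and 33.6 CPM for WT, 1780 and 119 CPM for KO. Of these, H2-Ab1 overlapped between the groups (33.6 and 17.3 CPM for WT, 268 and 17.7 CPM for KO). The 7 monocyte and macrophage markers gave 355 and 459 CPM for WT, 876 and 697 CPM for KO. Among these 7, Csf1r, F13a1, Mpeg1 and Cx3cr1 were higher in both KO libraries. Cd68 was lower in both (150 and 133 CPM for WT, 96.1 and 84.8 CPM for KO), and Adgre1 and Mrc1 overlapped between the groups. Stromal markers summed to at most 2.11 CPM, with Col3a1 at 0. The sums reached at most 35.8 CPM for B cells, 135 CPM for T and NK cells with Cd8a at 0, 101 CPM for mast cells and basophils, and 118 CPM for megakaryocytes with Ppbp at 0. In the library of each maximum, a single gene made up most of the sum. In that order these were Cd79b (33.8 CPM), Nkg7 (133 CPM), Mcpt8 (86.4 CPM) and Itga2b (112 CPM). Cd3e, Cd3d, Cd3g and Cd4 stayed at or below 0.619 CPM.

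KO and WT libraries did not differ detectably in the replication genes. Of the 32 genes, 16 had a log2 fold change (KO minus WT) below 0 and 16 at or above 0, and the median was -0.01, beside 50.5% below 0 and a median of 0.00 over all genes tested. The single values ran from -0.50 for Ung, a uracil DNA glycosylase, to 0.35 for Slbp, the stem-loop binding protein of histone mRNA. By edgeR's quasi-likelihood test 0 of 32 genes passed an adjusted p of 0.05, with a lowest adjusted p of 0.839, and the test called 0% of all 12623 genes. The deleted gene Ikzf2 was thus not called by edgeR (log2 fold change -3.89, adjusted p = 0.332), though DESeq2 called it (adjusted p = 1.13e-13). At an unadjusted p under 0.05 edgeR again held 0 of the 32, beside 7.67% of all genes, with a lowest unadjusted p of 0.187. DESeq2 called 0 of the 32 and 2.62% of the 13422 genes to which it gave an adjusted p. Voom with limma called 0 of the 32 and 0% of all genes, and at an unadjusted p under 0.05 voom held 0 of the 32, beside 7.41% of all genes.

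**Figure D1:**
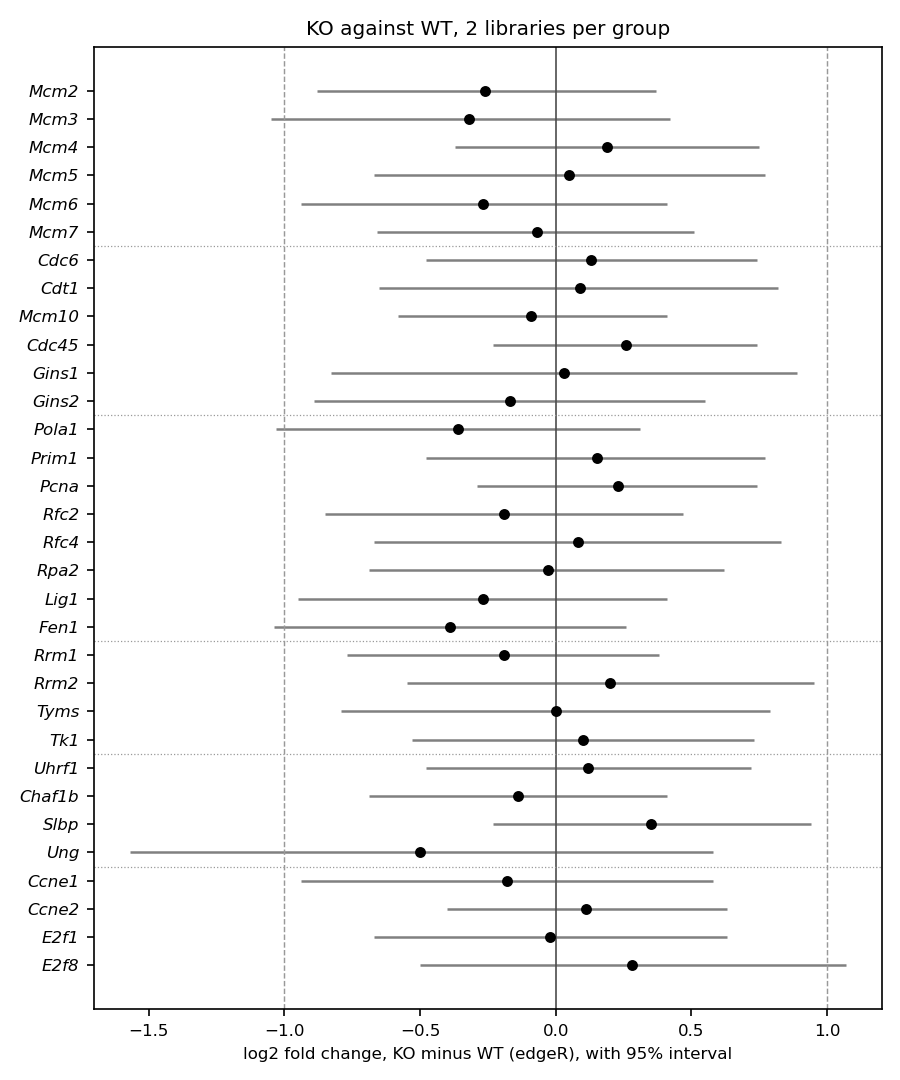
Log2 fold change of each of the 32 genes, KO minus WT, from edgeR on 2 libraries per group, with its 95% interval as a line; dotted lines separate the roles and dashed lines mark a change of 1 on the log2 scale. All 32 intervals include 0, and Ung has the widest, from -1.57 to 0.58.

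The 95% intervals show what size of change these libraries leave possible. All 32 intervals included 0. In 27 of 32 genes both bounds lay within a 2-fold change. The other 5 reached past it on 1 side: Ung (-1.57 to 0.58), Mcm3 (-1.05 to 0.42), Fen1 (-1.04 to 0.26), Pola1 (-1.03 to 0.31) and E2f8 (-0.50 to 1.07). Changes inside these intervals could not be told from no change.

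The clearest pattern lay between the WT libraries. All 32 genes were higher in WT replicate 1 than in WT replicate 2, beside 50.2% of all genes tested. The ratio ran from 1.07 for Tk1 to 2.34 for Ung, with a median of 1.39. A 95% interval for counting error alone, from an exact binomial split of the counts, excluded 1 in 31 of 32 genes, the exception being Ccne2. Across genes the WT replicates differed far beyond counting noise (chi-square per degree of freedom 80.5). No share over all genes is given for the 31 genes, so this count is not read as a trait of the replication genes. WT replicate 1 was the highest of the 4 libraries in 20 of 32 genes, beside 23.9% of all genes, and WT replicate 2 the lowest in 19. The summed level of the 32 genes was 6340 and 4630 CPM for WT, 5150 and 5470 CPM for KO, so that both KO libraries lay between the WT libraries. For 22 of 32 genes the KO mean lay within the range of the WT libraries. The WT library with the higher replication genes was the one with the lower granulocyte markers (1100 against 4310 CPM). The part of these markers in the difference was not tested. The KO libraries had the highest granulocyte marker sums and intermediate replication gene sums.

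**Figure D2:**
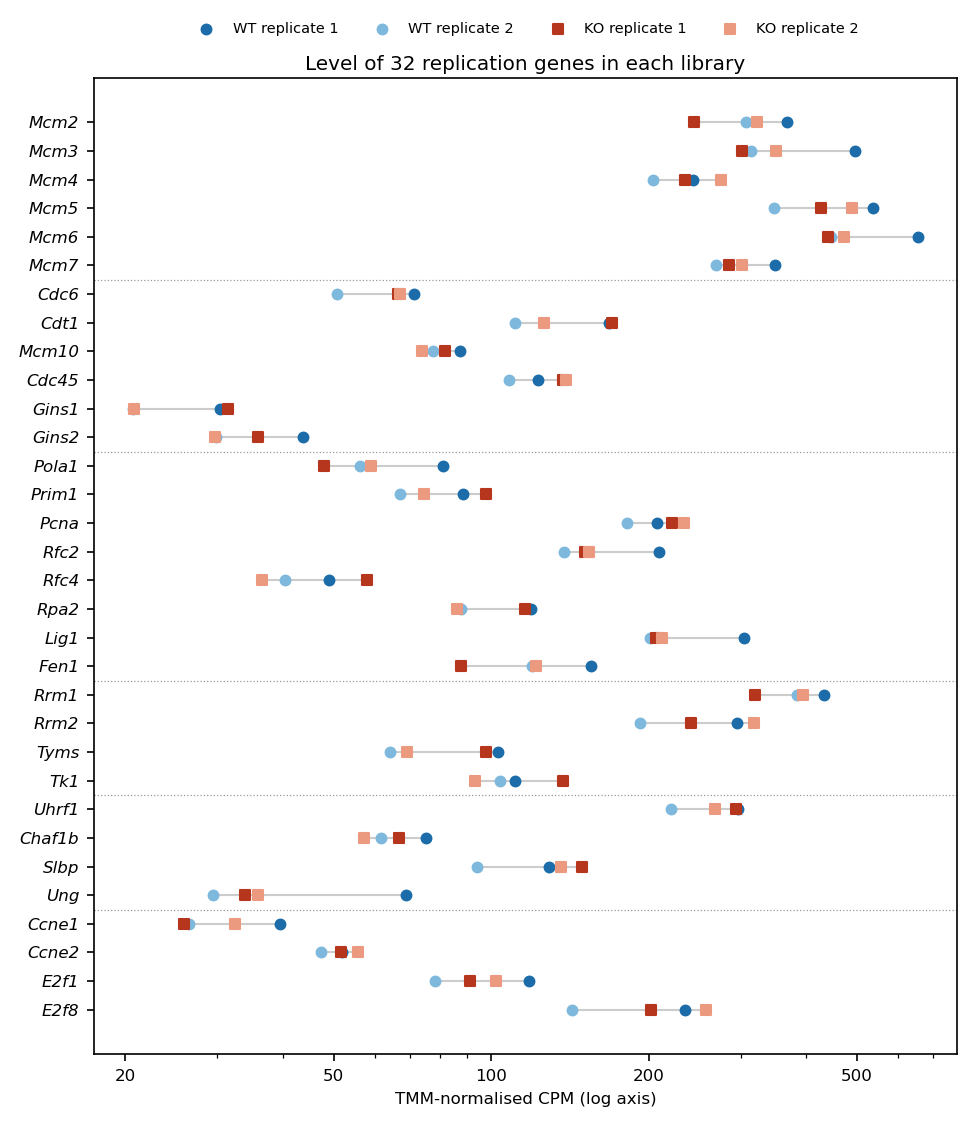
TMM-normalised CPM (log axis) of the 32 genes in each of the 4 libraries, circles for WT and squares for KO, with a grey line spanning the 4 values and dotted lines between roles. WT replicate 1 lies to the right of WT replicate 2 in all 32 genes.

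Because the WT libraries stood apart, the fold change depended on which of them served as the reference. Against WT replicate 1 alone the median over the 32 genes was -0.22, with 26 of 32 below 0. Against WT replicate 2 alone it was 0.21, with 4 of 32 below 0. These 4 were Fen1 (-0.19), Mcm2 (-0.12), Rrm1 (-0.10) and Pola1 (-0.07). Without KO replicate 1 the median was -0.11 and without KO replicate 2 it was -0.01. In all 4 fits edgeR called 0 of the 32, with the lone library of a group assumed to vary like the other group. Of the 32 genes 9 kept the sign of their fold change in all 4 fits: Slbp, Cdc45, Pcna, Mcm4 and Ccne2 above 0, and Fen1, Pola1, Mcm2 and Rrm1 below 0. No share over all genes is given here, so this count is not read as a trait of the replication genes.

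**Figure D3:**
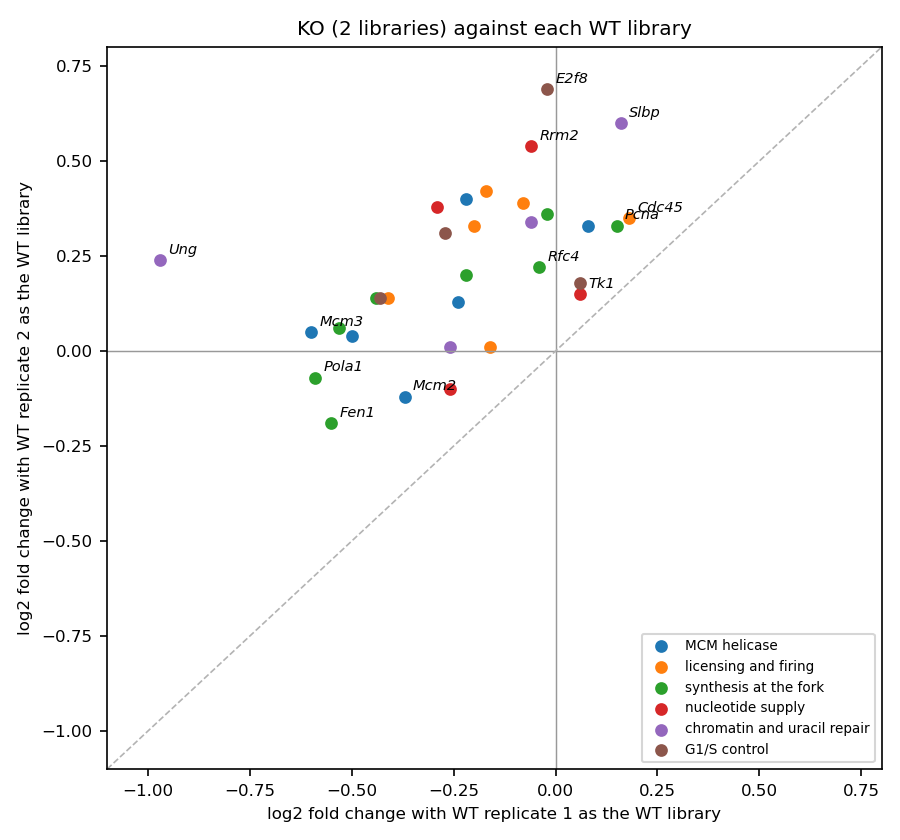
Log2 fold change of each gene with WT replicate 1 as the only WT library (horizontal axis) and with WT replicate 2 as the only WT library (vertical axis), both against the 2 KO libraries and coloured by role. All points lie above the dashed line of equal values, and 4 lie below 0 on the vertical axis against 26 on the horizontal axis.

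The KO libraries differed from each other as well, but in both directions. KO replicate 2 was higher than KO replicate 1 in 20 of 32 genes, with a median ratio of 1.04 and a range from 0.629 for Rfc4 to 1.39 for Fen1. The counting interval lay above 1 for 14 genes, among them the 6 MCM subunits, Rrm1 and Rrm2, Fen1, E2f1 and E2f8. It lay below 1 for 12, among them Gins1, Gins2, Cdt1, Prim1, Rpa2, Tyms and Tk1. The KO replicates also differed beyond counting noise across genes (chi-square per degree of freedom 109), and no share over all genes is given for these counts.

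The RefSeq promoter windows (build GRCm38.p6, 250 bases before to 50 after a transcript start) held 27 of the 32 genes, in 32 windows. Mcm4, Gins1, Gins2, Rfc2 and Ccne2 had no window. The E2F motif was searched on both strands as TTTCCCGC, TTTCGCGC, TTTGCCGC and TTTGGCGC, where a match on 1 strand can overlap a match on the other. It was found in 9 of 27 genes (33.3%), Mcm3, Mcm5, Mcm6, Mcm7, Cdc6, Cdt1, Pola1, Lig1 and Uhrf1, beside 4.70% of the 9599 tested genes with a window. This share is not particular to these genes. In lists described below it was 36.6% (15 of 41) for further replication genes and 43.8% (7 of 16) for the wider E2F and RB network. For ribosome biogenesis genes it was 15.8% (3 of 19). The CCAAT box (CCAAT) was found in 16 of 27 (59.3%, beside 42.8%), and the GC box (GGGCGG) in 21 of 27 (77.8%, beside 67.5%). The CHR element of mitotic genes (TTTGAA) was found in 4 of 27 (14.8%, beside 14.2%). In the mitosis genes the order was the reverse, with the CHR in 19 of 26 (73.1%) and the E2F motif in 1 of 26 (3.85%). The median GC content was 59.8% in the windows of the replication genes and 60.3% in those of all tested genes. A match is a description of these letters only.

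For 3 genes the bases upstream of the annotated gene are shown, 119 for Mcm5 and 160 for Mcm6 and Slbp, in capitals the E2F and CCAAT matches on either strand. Mcm5 and Mcm6 were chosen as MCM subunits with overlapping E2F matches in opposite orientation, and Slbp as the gene of highest fold change. They lie at chr8:75109349-75109467 (plus strand), chr1:128359706-128359865 (minus strand) and chr5:33652575-33652734 (minus strand), and each is written 5′ to 3′ on its gene's strand.
Mcm5: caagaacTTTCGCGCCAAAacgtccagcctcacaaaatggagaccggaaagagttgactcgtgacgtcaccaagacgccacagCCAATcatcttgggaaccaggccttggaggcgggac
Mcm6: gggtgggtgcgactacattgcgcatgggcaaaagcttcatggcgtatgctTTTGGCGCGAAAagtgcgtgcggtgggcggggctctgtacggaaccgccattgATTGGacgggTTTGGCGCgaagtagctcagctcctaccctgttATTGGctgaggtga
Slbp: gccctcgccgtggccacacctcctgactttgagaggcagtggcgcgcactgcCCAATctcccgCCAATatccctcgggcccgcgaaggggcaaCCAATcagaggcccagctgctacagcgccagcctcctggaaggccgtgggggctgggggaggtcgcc
The stretch of Mcm5 holds 2 E2F matches and 1 CCAAT match, that of Mcm6 holds 3 and 2, and that of Slbp holds 0 and 3.

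**Figure D4:**
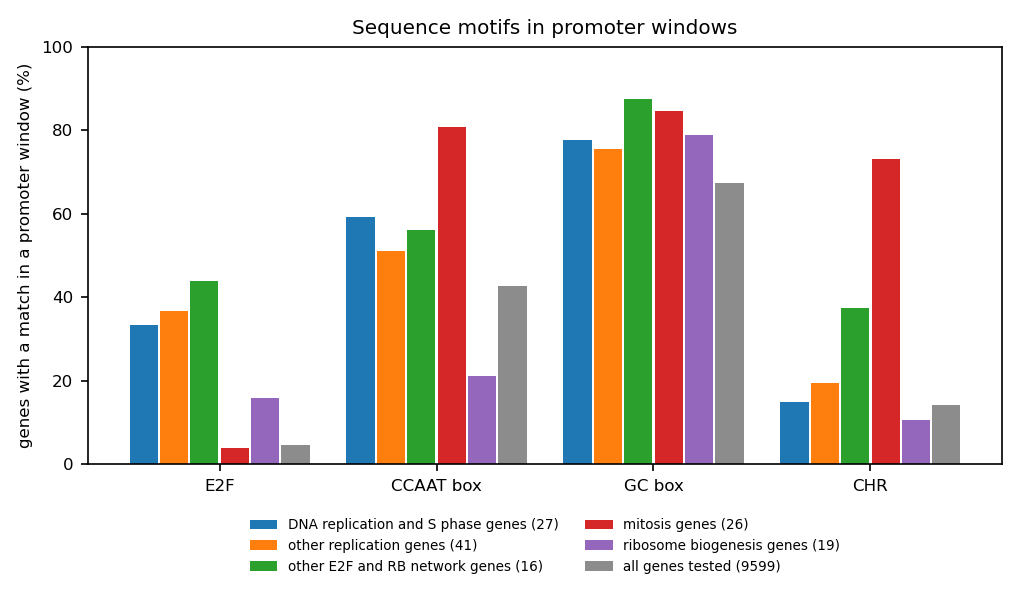
Share of genes (%) with at least 1 match of each motif in a promoter window, for the replication genes, 4 companion lists and all tested genes, with the number of genes that have a window in brackets. The replication genes stand at 33.3% for the E2F motif and 14.8% for the CHR, the mitosis genes at 3.85% and 73.1%.

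The MCM helicase unwinds the DNA ahead of the fork as a ring of 6 related subunits. All 6 were higher in WT replicate 1 than in WT replicate 2 and higher in KO replicate 2 than in KO replicate 1. In the order WT replicates 1 and 2, then KO replicates 1 and 2, which all values below follow, Mcm3 (chromosome 1, 20802966 to 20820312) had 497, 314, 302 and 350 CPM. Its fold change on the log2 scale, -0.32 (SE 0.29, 2 libraries per group), was the lowest of the 6, with both KO libraries near WT replicate 2. Mcm6 (chromosome 1, 128331575 to 128359705) had 654, 446, 441 and 473 CPM, and a log2 fold change of -0.27 (SE 0.27). It had the same shape, 1 high WT library and 3 libraries close together. Mcm2 (chromosome 6, 88883474 to 88898780) had 368, 307, 244 and 322 CPM, with KO replicate 1 the lowest. Mcm5 (chromosome 8, 75109468 to 75128439) had 538, 348, 427 and 489 CPM, both KO libraries lying between the WT libraries. Mcm7 (chromosome 5, 138164583 to 138172111) had 349, 269, 285 and 302 CPM, also between them. The fold change was -0.26 for Mcm2, 0.05 for Mcm5 (-0.02 when scaled by library size only), and -0.07 for Mcm7. Mcm4 (chromosome 16, 15623897 to 15637400) was the subunit with the highest fold change, 0.19 (SE 0.22), from 243, 204, 235 and 275 CPM. Summed over the 6 subunits, the levels were 2650, 1890, 1930 and 2210 CPM.

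Licensing and firing factors load the helicase and switch it on. Cdc45 (chromosome 16, 18780447 to 18811972), the helicase cofactor that is limiting for firing, had 123, 108, 137 and 139 CPM. Both KO libraries lay above both WT libraries, with a log2 fold change of 0.26 (SE 0.19, edgeR adjusted p = 0.862). Cdc6, the loader ATPase, had 71.4, 50.8, 66.4 and 67.1 CPM, inside the WT range. Cdt1, its partner in loading, had 168, 111, 170 and 126 CPM, with replicate 1 the higher library in both groups. The same held for the GINS subunits Gins1 (30.3, 20.7, 31.4 and 20.8 CPM) and Gins2 (43.8, 29.8, 35.8 and 29.7 CPM). Mcm10, which helps to activate the loaded helicase, had 87.4, 77.5, 81.7 and 73.7 CPM. The 6 fold changes ran from -0.17 for Gins2 to 0.26 for Cdc45, and that of Gins1, 0.03, was -0.03 with library sizes alone as scaling.

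Among the genes of synthesis at the fork, Pcna (chromosome 2, 132249286 to 132253180), the sliding clamp, had 208, 182, 222 and 234 CPM. Both KO libraries lay above both WT libraries, with a log2 fold change of 0.23 (SE 0.20, edgeR adjusted p = 0.897). Fen1 (chromosome 19, 10199132 to 10204393), the flap endonuclease that trims Okazaki fragments, had 155, 120, 87.7 and 122 CPM. Its log2 fold change of -0.39 (SE 0.26) came with KO replicate 1 as the lowest library and KO replicate 2 inside the WT range. Pola1 (chromosome X, 93304766 to 93632387), the catalytic subunit of polymerase alpha, had 81.0, 56.1, 48.0 and 58.9 CPM and a log2 fold change of -0.36 (SE 0.27). It is the X-linked member, and its lowest level was in KO replicate 1, the library with Xist RNA. The autosomal genes Mcm2, Mcm3, Mcm6, Fen1, Rrm1 and Ccne1 were also lowest in that library, and a link of Pola1 to Xist was not tested. Without KO replicate 1 the fold change of Pola1 was -0.22. Lig1, the ligase that seals the fragments, had 305, 201, 207 and 212 CPM and Rfc2, a clamp loader subunit, 209, 138, 151 and 154 CPM. In both, WT replicate 1 alone stood high. Rfc4, of the same loader, had 49.0, 40.4, 58.0 and 36.5 CPM, so that the KO libraries spanned the WT range. Prim1, the primase, had 88.4, 67.1, 97.9 and 74.6 CPM, and Rpa2, which coats single strands, 119, 87.8, 116 and 86.1 CPM. In these last 3 genes replicate 1 lay above replicate 2 within each group.

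Nucleotide supply genes split between the KO libraries. The ribonucleotide reductase subunit Rrm2 (chromosome 12, 24708254 to 24714146), which is made in S phase, had 295, 193, 241 and 318 CPM (log2 fold change 0.20, SE 0.30). Its partner Rrm1 had 433, 385, 320 and 395 CPM (-0.19, SE 0.23). In both subunits KO replicate 2 was the higher KO library. Tyms, thymidylate synthase, had 103, 64.1, 97.8 and 69.2 CPM, and Tk1, thymidine kinase, 111, 104, 137 and 93.3 CPM. In these thymidylate enzymes KO replicate 1 was the higher, and the fold change of Tyms, 0.00, was -0.06 with library sizes alone as scaling.

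Of the chromatin and uracil repair genes, Slbp (chromosome 5, 33640055 to 33652574) had 129, 94.2, 149 and 136 CPM. Both KO libraries lay above both WT libraries, with a log2 fold change of 0.35 (SE 0.23, edgeR adjusted p = 0.839, DESeq2 adjusted p = 0.935). It ranged from 0.16 without WT replicate 2 to 0.60 without WT replicate 1. With library sizes alone as scaling the groups of Slbp overlapped. Ung (chromosome 5, 114130366 to 114139321) had 68.8, 29.4, 33.8 and 35.9 CPM. A single library, WT replicate 1, stood high, and the log2 fold change of -0.50 (SE 0.43) turned to 0.24 without that library, and was -0.97 when WT replicate 2 was left out. Uhrf1, which brings DNA methylation to new strands, had 296, 221, 294 and 268 CPM. Chaf1b, of the complex that places histones behind the fork, had 75.0, 61.5, 66.8 and 57.3 CPM.

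The 4 G1 to S regulators had fold changes from -0.18 for Ccne1 to 0.28 for E2f8. E2f1 (chromosome 2, 154559400 to 154569892), an activator of the genes above, had 118, 78.1, 91.0 and 102 CPM, both KO libraries between the WT libraries. Its log2 fold change was -0.02 (SE 0.26), and 0.01 by voom. E2f8 (chromosome 7, 48866429 to 48882073), a repressor made in S phase that closes the E2F wave, had 235, 143, 202 and 258 CPM. Its fold change of 0.28 (SE 0.31) became 0.69 against WT replicate 2 alone and -0.02 against WT replicate 1 alone. The cyclin E genes Ccne1 and Ccne2 had 39.5, 26.5, 25.9 and 32.4 CPM and 51.9, 47.4, 51.6 and 55.7 CPM, with fold changes of -0.18 (SE 0.30) and 0.11 (SE 0.20).

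In total 3 of 32 genes, Slbp, Cdc45 and Pcna, had both KO libraries above both WT libraries, beside 18.1% of all genes, and 0 of 32 had both below, beside 19.1%. With library sizes alone as scaling, 2 lay above (Cdc45 and Pcna) and 5 below (Mcm2, Mcm6, Pola1, Fen1 and Rrm1). Under that scaling the median over all genes also fell, to -0.07, and the shares over all genes are not given. The span of 13 of the 32 genes overlaps that of another annotated gene, such as Mcm7 with Ap4m1 and Ung with Alkbh2. As no strand setting is given, reads of such pairs cannot be told apart.

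Other genes of the pathway were read from companion lists. Of 54 further replication genes, which include the origin recognition complex, the other polymerase, clamp loader and RPA subunits and the checkpoint mediators, all 54 were tested, and 28 had a fold change below 0, with a median of 0.00 (0.17 without WT replicate 1 and -0.15 without WT replicate 2). By edgeR 0 passed (0 also at an unadjusted p under 0.05), and by DESeq2 0. As in the 32 genes, 49 of the 54 were higher in WT replicate 1 than in WT replicate 2. The most abundant were Dnmt1, the maintenance methyltransferase, with 468, 374, 333 and 480 CPM, and Topbp1, a firing and checkpoint factor, with 405, 364, 334 and 432 CPM. In the wider E2F and RB network 17 of 21 genes were above 0, with a median of 0.22. Leaving out WT replicate 1 raised this median to 0.36, and leaving out WT replicate 2 lowered it to 0.10. Of these 0 passed edgeR or DESeq2, and 2 had an unadjusted p under 0.05 by edgeR. The most abundant were Tfdp1, the DNA-binding partner of E2F factors, with 288, 257, 334 and 374 CPM (log2 fold change 0.38, SE 0.21), and Ccna2, cyclin A2, with 194, 190, 242 and 244 CPM (0.34, SE 0.20). In both genes the KO libraries lay above the WT libraries.

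**Figure D5:**
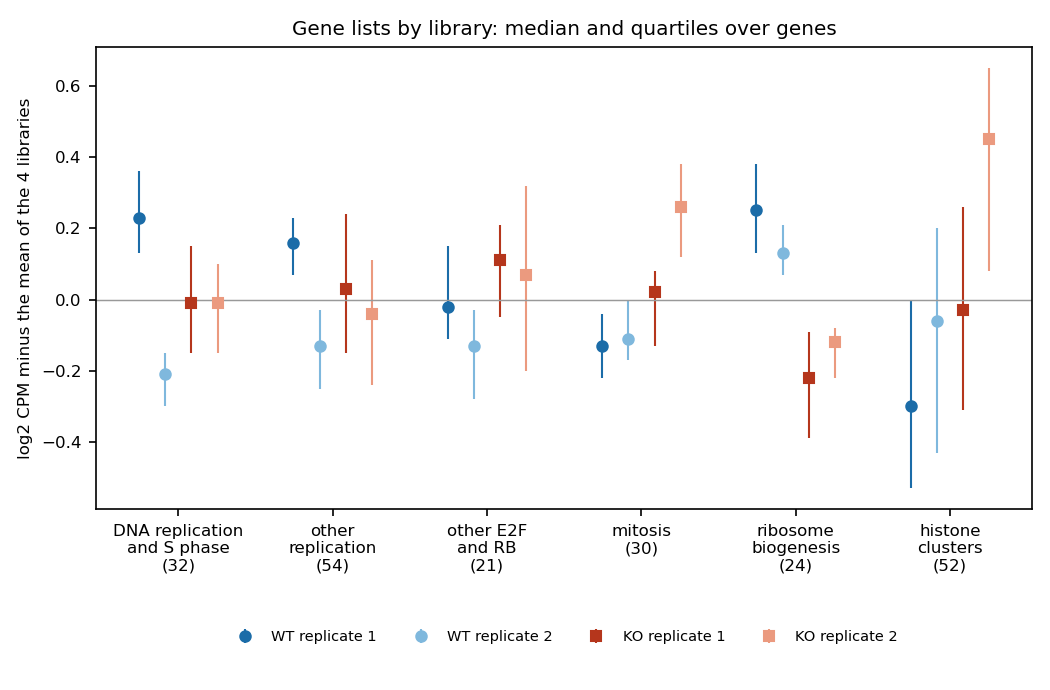
Median and quartiles over genes of log2 CPM minus each gene's mean of the 4 libraries, for the replication genes and 5 companion lists, with the number of genes tested in brackets. The replication genes stand at 0.23 in WT replicate 1, -0.21 in WT replicate 2 and -0.01 in both KO libraries.

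Mitosis and ribosome biogenesis, programs that often move with replication, gave other values. Of 30 mitosis genes, 16 were higher in WT replicate 1 than in WT replicate 2, with a median difference of 0.00. In KO against WT, 26 of 30 were above 0, with a median of 0.27, and in 17 both KO libraries lay above both WT libraries, beside 18.1% of all genes. Leaving out KO replicate 2 lowered the mitosis median to 0.13, and leaving out KO replicate 1 raised it to 0.39. Mki67 had 522, 624, 434 and 928 CPM and Top2a, topoisomerase II alpha, 616, 546, 390 and 692 CPM, so these most abundant members overlapped between the groups. Among ribosome biogenesis genes 22 of 24 lay below 0 (median -0.42), and both KO libraries lay below both WT libraries in 20, beside 19.1%. Ncl, of nucleolin, had 1320, 1290, 1040 and 1090 CPM, and Mybbp1a 396, 438, 252 and 360 CPM. Of both lists 0 passed edgeR or DESeq2, and 0 mitosis and 3 ribosome biogenesis genes had an unadjusted p under 0.05 by edgeR. Whether these lists differ from the replication genes was not tested.

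Clustered histone genes, many of whose mRNAs are made in S phase and processed with SLBP, were found by the symbol prefixes Hist1h to Hist4h. A symbol does not tell whether the transcripts counted were made in S phase, also for the genes named below. Of 68 symbols 52 passed the filter on low counts and 8 had no count in any library. Of the 52, 41 were above 0, with a median of 0.39, and 0 passed edgeR or DESeq2, with 2 at an unadjusted p under 0.05 by edgeR. Leaving out KO replicate 2 lowered the median to 0.19, and leaving out WT replicate 2 raised it to 0.65. Their summed level, 151, 212, 205 and 353 CPM, was highest in KO replicate 2. The most abundant, Hist1h1c, had 27.6, 44.5, 42.9 and 105 CPM and Hist1h2bc 9.90, 14.3, 16.5 and 51.5 CPM. The groups of Hist1h1c overlapped, and those of Hist1h2bc did not. Near-identical histone copies can lose or share reads, so these counts are uncertain.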

How the data were processed

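RNA was measured in 2 WT and 2 KO libraries, grouped and numbered by their titles. The deposited files carry partly different library numbers, so a replicate number here is only the title's. Each deposited file gives unnormalised read counts by gene symbol. The submitters' processing notes name HTSeq, Picard, MACS2, STAR (version 2.3.0) and Bowtie2 (version 2.2.5), as well as build mm10, without saying what each did. The annotation, strand setting and read filters were not given in the sources used here. The last 5 lines of each file, which count reads without a gene, 69.3% to 72.4% of all counts, were left out.

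In R 4.3.3, edgeR 4.0.16 kept 12623 genes (filterByExpr), scaled them by TMM and compared KO with WT by its robust quasi-likelihood test, with Benjamini-Hochberg adjustment over all genes. The SE is the absolute fold change over the root of F, and the 95% interval uses the moderated degrees of freedom. DESeq2 1.42.0 and voom in limma 3.58.1 were alternatives, with other scaling, no filter, non-robust moderation, a replicate block and leaving out each library. Log2 levels used a prior count of 2. The fit was checked on simulated counts, where most genes changed 2-fold were not called with 2 libraries per group. An absence of calls therefore does not show an absence of such changes. For simulated log2 changes of 3 edgeR called 96%, but in the real counts it did not call Ikzf2 at -3.89. Larger changes can thus be missed as well. Replicates differed beyond counting noise (chi-square per degree of freedom 80.5 in WT and 109 in KO). Counting intervals cover counting error only, and a count of 3 equals 0.156 to 0.187 CPM. Coordinates come from GRCm38.p6, which mm10 names.

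The 32 genes and all lists were chosen with earlier results of these data known. All 32 were named; of a companion list the text names up to 4 called members and the 2 of highest mean CPM. Genes named beyond this rule were chosen after their values were seen. Gene lengths were not used, so levels are not compared between genes.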

Additional observations from a re-analysis of the deposited data

How the results depend on the processing

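Under every setting run, 0 of the 32 genes passed as higher or lower, with a lowest adjusted p of 0.419 (edgeR without WT replicate 2). The median fold change was -0.07 with library sizes alone, and between -0.01 and 0.01 with DESeq2-style size factors, no filter, robust moderation off, DESeq2 and voom. Without 1 library it ran from -0.22 to 0.21. Library sizes alone gave 5 genes with both KO libraries below both WT libraries, while the median over all genes was -0.07 as well. Without 1 library these were 0 to 20, and those above 3 to 20, with fewer libraries to overlap. Shares over all genes at these settings are not given. With library sizes alone the fold changes of Mcm5 (-0.02), Gins1 (-0.03) and Tyms (-0.06) changed sign, as did that of E2f1 by voom (0.01). With the replicate block, E2f1 had 0.01, the median was 0.01, 0 of the 32 passed and edgeR called 11 of all genes instead of 0. The numbers share no stated animal or batch. Deviations of same-numbered libraries correlated at 0.19 across genes. With 2 libraries per group the opposite numbering must give the mirrored value, -0.19, so this check cannot decide whether same-numbered libraries share a batch. The main fit used no replicate block.

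Without 1 library, 23 genes changed sign, the range of the fold change being -0.43 to 0.14 for Ccne1, -0.08 to 0.39 for Cdc6, -0.17 to 0.42 for Cdt1, -0.26 to 0.01 for Chaf1b, -0.27 to 0.31 for E2f1, -0.02 to 0.69 for E2f8, -0.29 to 0.33 for Gins1 and -0.41 to 0.14 for Gins2. It was -0.53 to 0.06 for Lig1, -0.60 to 0.05 for Mcm3, -0.22 to 0.40 for Mcm5, -0.50 to 0.04 for Mcm6, -0.24 to 0.13 for Mcm7, -0.16 to 0.01 for Mcm10, -0.06 to 0.36 for Prim1 and -0.44 to 0.14 for Rfc2. It was -0.29 to 0.37 for Rfc4, -0.26 to 0.20 for Rpa2, -0.06 to 0.54 for Rrm2, -0.21 to 0.35 for Tk1, -0.29 to 0.38 for Tyms, -0.06 to 0.34 for Uhrf1 and -0.97 to 0.24 for Ung. The cause was not tested, and no share of sign changes over all genes is given here. Each gene had 354 or more counts in each library, and how far depth limits these comparisons was not tested.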
